A study of Mus musculus with 12 samples.

Results

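Emodin, a plant anthraquinone, was added to mouse peritoneal macrophages during classical activation, and 190 genes were selected because their RNA was lower with emodin while activation itself had left it near the control level. They were chosen from 19695 named genes on a one-colour Agilent array, of which 11414 had a probe well above background on all control and LPS_IFNg arrays, and 5020 of those were flat between LPS_IFNg and control. The selection asked for a mean log2 difference between LPS_IFNg and control from -0.4 to 0.4, and for a mean in LPS_IFNg_emodin that was 1.7 or more below LPS_IFNg on the log2 scale. Both of these differences therefore chose the genes, and the values below describe the genes without testing them.

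The study had 3 groups of 4 arrays. The LPS_IFNg_emodin cells had received lipopolysaccharide (LPS, 100 ng/ml), interferon gamma (IFNg, 20 ng/ml) and emodin (50 μM). The LPS_IFNg cells had received the same LPS and IFNg without emodin, and the control cells had received vehicle. All cells were wild-type C57BL/6 peritoneal macrophages, kept by adherence, held in serum-free medium overnight and collected after 20 hours. The mice of the 2 stimulated groups were labelled female and 9 weeks old. The control mice were labelled 8 weeks old, 2 of them female and 2 male. The labels call the samples of a group biological replicates, and nothing in them ties a sample to a named animal.

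LPS and IFNg together drive macrophages into an inflammatory state through Toll-like receptor 4 and the interferon gamma receptor, and most studies of an inhibitor look at the genes that this state induces. The genes here were selected for an LPS_IFNg mean near that of control, which does not show that each lies outside that response. No group received emodin alone. Many of the genes carry tasks found in many cells, among them actin and microtubule dynamics, lipid handling, mitochondrial metabolism and the machinery of cell division. Others act in nucleotide sensing, and some are genes of fibroblasts or B cells.

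Several facts about the arrays bear on every value. The control arrays lay on 1 slide and the 8 stimulated arrays on another, so slide, mouse age and stimulation cannot be told apart in any difference against control. The 75th percentile of the processed signal, to which each array was scaled, was 435 to 547 on the LPS_IFNg_emodin arrays, 764 to 951 on the LPS_IFNg arrays and 745 to 969 on the control arrays. Spike-in RNA gave 14.05 to 14.26 on the LPS_IFNg_emodin arrays, 14.14 to 14.30 on the LPS_IFNg arrays and 11.41 to 11.86 on the control arrays (log2 signal), so only the 2 stimulated groups were compared with spike-in scaling. Scaling to the spike-ins moved the median of all genes in LPS_IFNg_emodin against LPS_IFNg by -0.69, and all levels below are relative to the 75th percentile. Replicate 3 of LPS_IFNg_emodin and of LPS_IFNg, labelled female, carried signal of the Y-linked genes Ddx3y and Eif2s3y and none of Xist above background, while control replicates 3 and 4, labelled male, carried Xist and no signal of Ddx3y or Eif2s3y. Without replicate 3 of the 2 stimulated groups, 187 genes met the selection, 164 of them among the 190. The tissue label names peritoneal macrophages while the design text names peripheral WBC PMN samples, and all 9 macrophage markers measured were well above background on all 12 arrays, with summed levels of 476 to 575 in LPS_IFNg_emodin, 401 to 467 in LPS_IFNg and 574 to 590 in control (linear, relative to the 75th percentile). Of 11 neutrophil markers, 6 were above background on all LPS_IFNg_emodin arrays, 5 on all LPS_IFNg arrays and 7 on all control arrays.

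A lower level in a culture can come from fewer cells of a kind or from less RNA per cell, and arrays of whole cultures cannot tell these apart. The median level of the 190 genes was -2.30, -2.69, -2.99 and -2.30 on the 4 LPS_IFNg_emodin arrays, 0.03, -0.25, -0.15 and -0.13 on the LPS_IFNg arrays, and -0.06, -0.10, -0.002 and -0.42 on the control arrays. The LPS_IFNg_emodin arrays thus lay together and well under the other 8, which overlapped. The median difference between LPS_IFNg_emodin and LPS_IFNg was -2.23, the middle of the genes ran from -2.89 to -1.93 (quartiles), and the lowest was -5.45. Against control the median difference was -2.25. The other 4830 flat genes had a median difference of 0.10 between LPS_IFNg_emodin and LPS_IFNg, and 71 of the flat genes were higher with emodin by 1.7 or more.

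**Figure D1:**
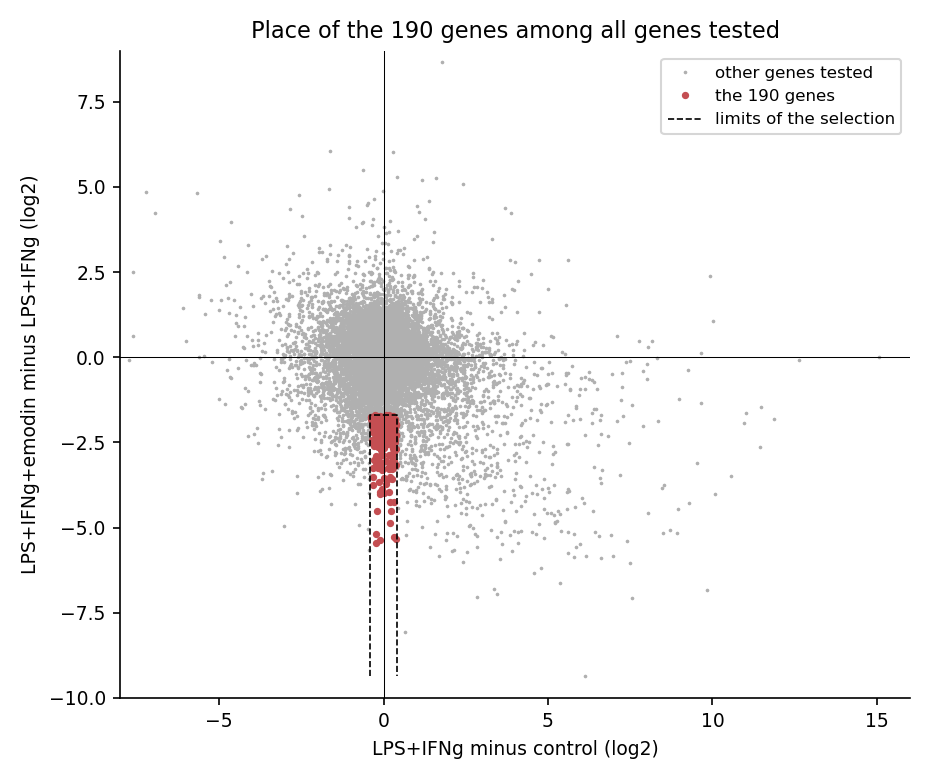
Each point is 1 gene tested, with the log2 difference of LPS_IFNg against control on the horizontal axis and that of LPS_IFNg_emodin against LPS_IFNg on the vertical axis. The 190 genes (red) fill the band between the dashed selection limits at -0.4 and 0.4, from -1.7 down to -5.45.

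For 188 of the 190 genes every LPS_IFNg_emodin array was below every LPS_IFNg array, and among all 12731 genes tested this held for 34.0%. For 184 genes every LPS_IFNg_emodin array was below every control array too, against 35.4% of all genes tested. Between LPS_IFNg and control the arrays overlapped for 162 genes, while 14 had all LPS_IFNg arrays above control and 14 had them all below. In the fit across all genes (limma, Benjamini-Hochberg adjusted p under 0.05) all 190 were called lower in LPS_IFNg_emodin than in LPS_IFNg, where 36.2% of all genes were called lower and 36.3% higher. Only 25 of the 190 were called between LPS_IFNg and control (13 higher, 12 lower), where 69.2% of all genes were called. These counts follow from the selection and support nothing further. On the linear scale 127 genes were 4-fold or more lower in LPS_IFNg_emodin than in LPS_IFNg, 44 were 8-fold or more lower and 11 were 16-fold or more lower.

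**Figure D2:**
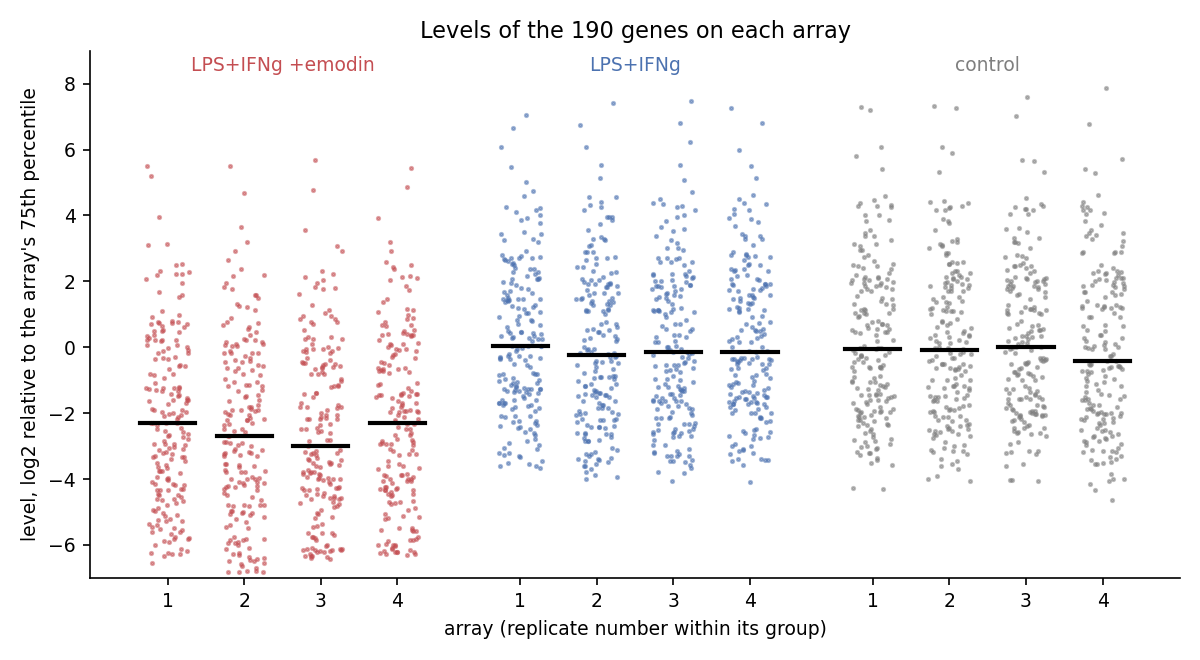
Each point is the level of 1 of the 190 genes on 1 array, in log2 relative to the 75th percentile of that array, and the black bars are medians. The LPS_IFNg_emodin arrays have medians from -2.99 to -2.30, and the LPS_IFNg and control arrays from -0.42 to 0.03.

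How low a gene could be seen to go was set by the background. Of the 190 genes, 112 were well above background on all 4 LPS_IFNg_emodin arrays, 33 on 1 to 3 of them and 45 on none. For those 45 the difference is only a bound, given as "at least". It sets the LPS_IFNg mean against a mean over the LPS_IFNg_emodin arrays. On each array the higher of 2 values counted: the probe's own signal, or the lowest signal well above background of any probe. The bounds ran from 1.33-fold to 15.7-fold lower with a median of 3.85-fold, and 21 of the 45 were at least 4-fold lower. That lowest signal is not the limit of each probe. In Cdc20, above background on 2 LPS_IFNg_emodin arrays, the fold was 5.98 both as read and at the bound. Its signals that were not well above background thus did not lie under that lowest signal. Every "at least" value is therefore no strict minimum for its gene. It holds for the processed signal only and is no minimum under another background correction. No probe of the 190 was saturated on any array. The differences also depended on the background correction: with normexp, run on the median signal, the median difference of the 190 was -1.64, and 83 of them met the selection. By brightness in LPS_IFNg, the median with normexp was -0.83 for the dimmest 64 genes, -1.71 for the middle 62 and -2.02 for the brightest 64, where it was -2.48, -2.28 and -1.99 with the processed signal. Arl6 lost its LPS_IFNg_emodin replicate 3 to an outlier flag and rests on 3 arrays there.

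The genes were grouped by role after their values had been seen, which placed 145 of the 190 in 11 roles. With each gene that was not above background on all LPS_IFNg_emodin arrays set at its bound, the median difference between LPS_IFNg_emodin and LPS_IFNg was -2.05 over the 190, and over the roles it ran from -2.26 for cell division and DNA replication to -1.91 for membrane transport and for redox and carbonyl reduction.

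**Figure D3:**
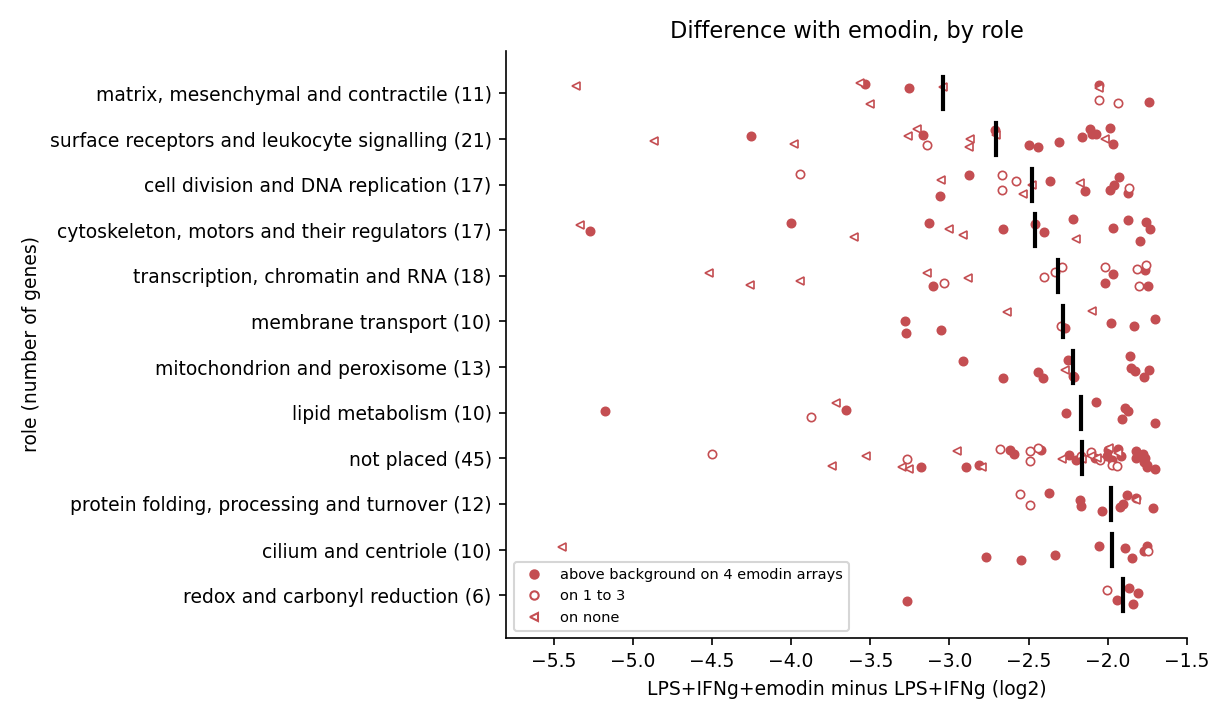
Each symbol is 1 of the 190 genes, placed by its log2 difference of LPS_IFNg_emodin against LPS_IFNg within its role, and black bars are medians of the plotted values. Filled circles were well above background on all 4 emodin arrays, open circles on 1 to 3, and open triangles on none, where the text gives a bound.

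Genes of the cytoskeleton, its motors and their regulators made up 17 of the 190, with a median difference of -2.46 as measured and -2.22 with dim genes at their bound. Dock2 is the haematopoietic guanine nucleotide exchange factor that activates Rac for leukocyte migration. It had levels of -2.12, -2.22, -2.18 and -1.95 in LPS_IFNg_emodin, against 1.72, 1.92, 2.00 and 1.91 in LPS_IFNg and 1.94, 1.89, 1.91 and 2.24 in control. The LPS_IFNg_emodin mean was 16.04-fold lower than the LPS_IFNg mean, the replicates of each group lay close together, and the LPS_IFNg and control arrays overlapped. Its other probe differed by -2.76. Its relative Dock1, which activates Rac downstream of integrins and in the engulfment of dying cells, was at -1.41, -1.45, -1.51 and -1.42 in LPS_IFNg_emodin, against 0.82, 1.13, 1.14 and 0.96 in LPS_IFNg and 1.29, 1.10, 1.23 and 1.68 in control. Dock1 was 5.49-fold lower, and here too no LPS_IFNg_emodin array reached either other group.

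Other members of this role bind actin or tubulin directly. Dpysl2 encodes CRMP2, which binds tubulin and promotes microtubule assembly. Its levels were -1.61, -1.94, -1.80 and -1.63 in LPS_IFNg_emodin, 3.19, 3.57, 3.94 and 3.39 in LPS_IFNg, and 3.15, 3.00, 3.18 and 3.47 in control. At 38.6-fold lower than LPS_IFNg it had the largest fold of the 112 genes measured above background throughout. Tuba1a, an alpha-tubulin gene, had levels of 3.09, 2.91, 2.91 and 2.92 in LPS_IFNg_emodin, against 6.07, 6.09, 6.22 and 5.99 in LPS_IFNg and 6.09, 6.08, 5.64 and 5.71 in control, and was 8.77-fold lower than in LPS_IFNg. The tubulin-folding cofactor gene Tbcd was 6.34-fold lower and its relative Tbcel, with a difference of -1.80, was also selected. Flna encodes filamin A, which crosslinks actin filaments and anchors membrane receptors to them. It stayed clearly measurable at 5.51, 5.52, 5.68 and 5.43 in LPS_IFNg_emodin, against 7.06, 7.40, 7.47 and 7.26 in LPS_IFNg and 7.29, 7.33, 7.61 and 7.86 in control, a 3.39-fold lower mean in LPS_IFNg_emodin than in LPS_IFNg.

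Arpin, an inhibitor of the Arp2/3 complex that nucleates branched actin, was not well above background on any LPS_IFNg_emodin array. Its levels in LPS_IFNg were 1.47, -0.41, -1.24 and -0.90, so replicate 1 stood above the other 3, and in control they were -0.73, -0.62, -0.39 and -0.86. By the bound it was at least 15.7-fold lower in LPS_IFNg_emodin than in LPS_IFNg, a value that rests in part on LPS_IFNg replicate 1. The difference of the signals as read was -5.33 with LPS_IFNg replicate 1 and -4.76 without it. The LPS_IFNg_emodin signals in that difference were not well above background. The dynein light chain gene Dynlt1c was 3.33-fold lower, and because mouse has near-identical Dynlt1 copies its probe may read several of them. Svil, encoding the membrane-linked actin binder supervillin, differed by -2.22 on the probe used and by -0.23 on its other probe.

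**Figure D4:**
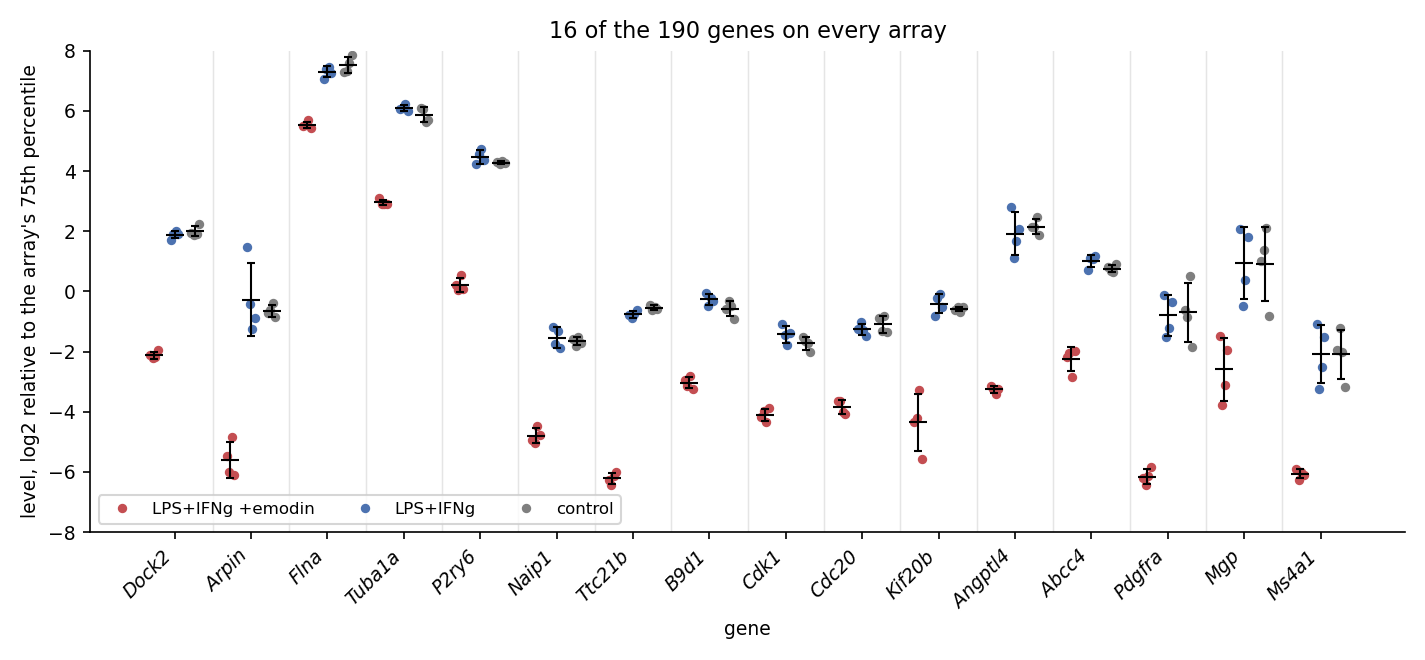
Circles are single arrays for 16 of the 190 genes, in log2 relative to the array's 75th percentile, with LPS_IFNg_emodin left, LPS_IFNg centre and control right for each gene. Bars are the mean ± SD of 4 arrays. The stromal genes Pdgfra and Mgp and the B-cell gene Ms4a1 spread widely within LPS_IFNg and control, where Dock2, Flna, P2ry6 and Ttc21b lay close together. Arpin and Angptl4 spread widely within LPS_IFNg too.

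Surface receptors and leukocyte signalling gave 21 of the 190, of which 8 were above background on no LPS_IFNg_emodin array. The median difference was -2.16 with dim genes at their bound and -2.23 over the 12 genes measured on all LPS_IFNg_emodin arrays. P2ry6 encodes the receptor for extracellular UDP, which macrophages use to sense nucleotides leaking from damaged cells. It had levels of 0.22, 0.03, 0.54 and 0.07 in LPS_IFNg_emodin, 4.23, 4.55, 4.73 and 4.35 in LPS_IFNg, and 4.31, 4.23, 4.34 and 4.25 in control. The LPS_IFNg_emodin mean was 19.1-fold lower than that of LPS_IFNg, and the 8 other arrays lay close together. P2ry10b, a related G protein-coupled receptor gene with a close neighbour copy, differed by -2.44.

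Both Naip genes of the set encode NLR sensors that detect bacterial flagellin or secretion needles and start the NLRC4 inflammasome, as known in mouse for several family members. Naip6 was at -1.22, -1.52, -1.697 and -1.41 in LPS_IFNg_emodin, against 1.47, 1.92, 1.86 and 1.57 in LPS_IFNg and 1.96, 1.70, 2.01 and 2.11 in control, an 8.99-fold lower mean. Naip1 was above background on no LPS_IFNg_emodin array and at least 6.53-fold lower, and its other probe differed by -0.79. The Naip copies are close in sequence, so the 2 probes may share targets.

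Further leukocyte genes of the set restrain or relay receptor signals. Cd33, a sialic acid-binding receptor gene of myeloid cells, was at -0.81, -1.04, -0.80 and -0.71 in LPS_IFNg_emodin, 1.95, 1.91, 1.87 and 1.75 in LPS_IFNg and 1.98, 2.07, 1.87 and 1.90 in control. It was 6.55-fold lower with standard deviations of 0.14 or less in each group. Fyn, a Src-family kinase gene, differed by -2.30. Ptpn7 and Dusp6, phosphatases that act on ERK-type MAP kinases, differed by -2.11 and -2.08, and Samsn1, an adaptor that dampens B-cell signalling, by -2.10. Arrb1, encoding beta-arrestin 1, which turns off and internalises G protein-coupled receptors, differed by -1.98, and Cd1d1, encoding the molecule that presents lipids to NKT cells, by -1.97.

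The integrin alpha 9 gene, Itga9, was above background on no LPS_IFNg_emodin array and at least 4.42-fold lower than in LPS_IFNg. Of 18 other integrin and matrix receptor genes, 6 were called lower and 8 higher, with a median difference of -0.05 beside 0.01 over all genes tested. Shares over all genes tested were 36.2% lower and 36.3% higher. Itgb2, the beta chain of the leukocyte integrins, fell by 1.001 (± 0.07 SE, limma adjusted p = 1.21e-07), Itgax differed by -0.18 (adjusted p = 0.409) and Itgb7 rose by 0.56 (± 0.14, adjusted p = 0.00298). With spike-in scaling 10 of the 18 were called lower and 3 higher, and Itgb7 differed by -0.13.

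Cell division and DNA replication gave 17 of the 190 genes, with a median difference of -2.26 between LPS_IFNg_emodin and LPS_IFNg with dim genes at their bound, and of 0.02 between LPS_IFNg and control. Many genes of this role were dim in LPS_IFNg_emodin: 8 of the 17 stayed above background on all LPS_IFNg_emodin arrays and 4 were above it on none. Cdk1, the kinase that drives entry into mitosis, was at -4.17, -3.99, -4.34 and -3.88 in LPS_IFNg_emodin, -1.08, -1.46, -1.78 and -1.37 in LPS_IFNg, and -1.52, -1.63, -1.71 and -2.02 in control, a 6.36-fold lower mean with emodin. It was above background on 3 of the 4 LPS_IFNg_emodin arrays. Cdc20, the activator of the anaphase-promoting complex, was at -3.64, -3.64, -4.02 and -4.07 in LPS_IFNg_emodin, -1.26, -1.02, -1.28 and -1.49 in LPS_IFNg, and -0.88, -1.31, -0.81 and -1.36 in control, a 5.98-fold lower mean and above background on 2 LPS_IFNg_emodin arrays. In both genes every LPS_IFNg_emodin array lay below every array of the other groups.

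Mitotic genes are commonly switched on together through a cell cycle homology region (CHR, letters TTTGAA) near the start site and CCAAT boxes upstream, bound in human and mouse cells by the DREAM and MuvB complexes and by NF-Y. The promoters of 5 genes of this role are shown because the set holds genes of this class. That they were lower together follows from the selection. Each runs from 250 bases before to 50 bases after the annotated start, on the strand of the gene, in the RefSeq annotation of GRCm38.p6, with CCAAT boxes and CHR letters on either strand in capitals. They are Cdk1 (chr10:69352863-69353162, minus strand), Cdc20 (chr4:118437294-118437593, minus), Cks1b (chr3:89418242-89418541, minus), Kif22 (chr7:127042371-127042670, minus) and Asf1b (chr8:83955444-83955743, plus).
Cdk1: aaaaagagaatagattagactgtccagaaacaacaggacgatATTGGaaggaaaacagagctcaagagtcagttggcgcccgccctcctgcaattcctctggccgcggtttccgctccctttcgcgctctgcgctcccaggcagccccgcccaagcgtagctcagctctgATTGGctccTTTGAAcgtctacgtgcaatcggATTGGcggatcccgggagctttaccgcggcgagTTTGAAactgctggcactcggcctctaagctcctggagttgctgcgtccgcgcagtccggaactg
Cdc20: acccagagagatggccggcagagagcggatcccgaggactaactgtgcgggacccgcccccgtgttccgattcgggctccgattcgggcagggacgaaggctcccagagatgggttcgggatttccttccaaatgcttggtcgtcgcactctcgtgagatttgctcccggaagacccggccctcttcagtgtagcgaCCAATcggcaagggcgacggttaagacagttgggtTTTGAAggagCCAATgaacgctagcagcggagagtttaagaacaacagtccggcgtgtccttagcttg
Cks1b: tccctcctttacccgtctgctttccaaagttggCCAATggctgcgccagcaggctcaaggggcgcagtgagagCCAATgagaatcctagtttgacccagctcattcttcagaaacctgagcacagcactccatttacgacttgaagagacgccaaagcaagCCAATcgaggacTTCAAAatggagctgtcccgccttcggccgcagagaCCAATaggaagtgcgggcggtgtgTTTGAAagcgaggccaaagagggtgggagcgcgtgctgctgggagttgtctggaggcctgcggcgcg
Kif22: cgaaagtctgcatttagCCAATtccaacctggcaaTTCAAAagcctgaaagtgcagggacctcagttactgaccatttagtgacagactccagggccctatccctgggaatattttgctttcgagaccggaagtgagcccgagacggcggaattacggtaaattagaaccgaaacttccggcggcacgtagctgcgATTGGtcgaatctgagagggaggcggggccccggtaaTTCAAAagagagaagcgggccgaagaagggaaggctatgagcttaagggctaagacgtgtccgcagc
Asf1b: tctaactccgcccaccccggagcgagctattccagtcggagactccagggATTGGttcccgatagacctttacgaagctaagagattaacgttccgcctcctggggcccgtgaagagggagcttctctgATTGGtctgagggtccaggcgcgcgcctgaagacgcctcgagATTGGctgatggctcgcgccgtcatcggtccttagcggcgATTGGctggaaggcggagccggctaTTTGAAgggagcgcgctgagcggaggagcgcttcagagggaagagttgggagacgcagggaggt
The CHR letters nearest the start began 15 bases before it in Cdk1, 18 in Cdc20, 17 in Cks1b, 17 in Kif22 and 14 in Asf1b. The nearest CCAAT box upstream of them began 48 bases before the start in Cdk1, 53 in Cdc20, 41 in Cks1b, 54 in Kif22 and 39 in Asf1b. The letters marked are CCAAT and TTTGAA on both strands, which do not overlap here. They come from a longer list of motifs searched in the promoters, and the others are not shown. Among all 27025 promoters listed, 37.9% held CCAAT, 18.1% held TTTGAA and 7.12% held both. The table had promoters for 12 of the 17 genes of this role and for 141 of all 190, under the share needed to compare motif or base content over the set, so such a comparison is void. Of those 12, 8 held CCAAT, 9 held TTTGAA and 7 held both, counts that are not compared with the shares of all promoters. Cenpt and Dsn1 held neither, Kif20b and Cdca5 lacked CCAAT and Cks1brt lacked TTTGAA, and in Smc2 and Ect2 the TTTGAA letters nearest the start lay after it. The 5 promoters shown were picked after their letters had been read, so their similar positions are no finding. A match describes the letters and not a bound site.

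The other division genes act at successive steps. Smc2, a core subunit of condensin, was at -2.30, -1.97, -2.19 and -2.12 in LPS_IFNg_emodin, 0.66, 1.17, 1.08 and 0.76 in LPS_IFNg, and 0.69, 0.77, 0.53 and 0.68 in control, and was 8.35-fold lower. Cks1b, a small partner of cyclin-dependent kinases, was at -1.07, -0.85, -0.95 and -0.69 in LPS_IFNg_emodin, 1.43, 1.59, 1.305 and 1.59 in LPS_IFNg and 2.08, 1.99, 1.62 and 1.27 in control, and was 5.16-fold lower. Cks1brt, a near-identical copy whose probe may read Cks1b RNA, was at least 4.79-fold lower. Kif20b, a kinesin of cytokinesis, was at -4.34, -4.22, -3.29 and -5.58 in LPS_IFNg_emodin, -0.82, -0.22, -0.09 and -0.50 in LPS_IFNg and -0.63, -0.51, -0.67 and -0.52 in control, with only 1 LPS_IFNg_emodin array above background. The LPS_IFNg_emodin values of Kif20b spread over more than 2 log2 units, all below the other groups. Pole, the catalytic subunit of DNA polymerase epsilon, was at least 6.47-fold lower. Cenpt, Dsn1 and Zwilch of the kinetochore, Cdca5 (sororin) of cohesin, Ect2 of cytokinesis and the histone chaperone Asf1b differed by -2.88, -1.93, -1.96, -2.67, -1.99 and -1.87 in that order.

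Of 18 further cell cycle and mitosis genes, 11 were called lower in LPS_IFNg_emodin than in LPS_IFNg and 2 higher, with a median difference of -1.09. Over all genes tested it was 36.2% lower and 36.3% higher, with a median of 0.01. The brightest of the 18 did not move together. Mad2l1, of the spindle checkpoint, fell by 1.63 (± 0.11 SE, limma adjusted p = 7.69e-08), Tpx2, a spindle assembly factor, differed by -0.20 (adjusted p = 0.205), and Mki67, which encodes Ki-67, rose by 1.55 (± 0.22, adjusted p = 4.32e-05). Spike-in scaling gave 16 lower and 1 higher, with Mki67 still at 0.86. Of 24 DNA replication genes, none of which is in the set, 12 were called lower and 9 higher with a median of -0.21, and spike-in scaling gave 16 lower and 3 higher.

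Genes of the cilium and centriole made up 10 of the 190, with a median difference of -1.98 and standard deviations among the smallest of any role (median 0.12 in LPS_IFNg). Ttc21b, a subunit of the intraflagellar transport complex IFT-A, was at -6.26, -6.43, -6.15 and -6.01 in LPS_IFNg_emodin, against -0.78, -0.89, -0.75 and -0.63 in LPS_IFNg and -0.44, -0.61, -0.52 and -0.57 in control. It was not above background on any LPS_IFNg_emodin array and at least 11.1-fold lower than in LPS_IFNg. Wdr35, another IFT-A subunit gene, differed by -2.55, and Ift43, also of IFT-A, was at 0.28, 0.16, -0.17 and 0.38 in LPS_IFNg_emodin, 2.39, 2.53, 2.58 and 2.49 in LPS_IFNg, and 2.26, 2.32, 2.12 and 2.04 in control, a 5.03-fold lower mean. The transition zone genes B9d1 and Tmem237 were 6.80-fold lower and different by -2.06, and the small GTPase gene Arl6, whose protein recruits the BBSome coat, differed by -1.85. Poc1a and Cep97, of the centriole, differed by -1.75 and -1.89. These genes were picked out by function after their values were seen.

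Lipid metabolism gave 10 genes with a median difference of -2.17. Angptl4 encodes a secreted inhibitor of lipoprotein lipase and is a common target of PPAR receptors and of hypoxia. Its levels were -3.13, -3.25, -3.40 and -3.24 in LPS_IFNg_emodin, 2.80, 1.12, 1.69 and 2.08 in LPS_IFNg, and 2.14, 2.13, 2.47 and 1.88 in control. The LPS_IFNg_emodin mean was 36.2-fold lower than that of LPS_IFNg, with LPS_IFNg replicate 1 the highest array of all. Of 18 other genes of fatty acid oxidation and PPAR targets, 5 were called lower and 9 higher in LPS_IFNg_emodin than in LPS_IFNg, with a median difference of 0.15. Shares over all genes tested were 36.2% lower and 36.3% higher. The lipid droplet coat gene Plin2 rose by 1.66 (± 0.09 SE, limma adjusted p = 1.64e-08) and the fatty acid-binding protein gene Fabp4 rose by 2.89 (± 0.13, adjusted p = 4.26e-09), and both stayed above 0 with spike-in scaling (0.96 and 2.20). Acadvl, of mitochondrial fatty acid oxidation, differed by 0.01 (adjusted p = 0.867) and by -0.68 with spike-in scaling, which gave 10 lower and 6 higher over the 18.

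The remaining lipid genes act in synthesis and transport. Cyp4f16, a cytochrome P450 of the family that omega-hydroxylates leukotrienes and fatty acids, was at -3.20, -3.09, -3.86 and -3.11 in LPS_IFNg_emodin, 0.45, 0.34, 0.31 and 0.26 in LPS_IFNg, and 0.54, 0.47, 0.50 and 0.36 in control, a 12.6-fold lower mean. Acsl4, which activates arachidonic acid, was at 2.503, 2.38, 2.22 and 2.39 in LPS_IFNg_emodin, 4.59, 4.41, 4.28 and 4.50 in LPS_IFNg and 4.595, 4.28, 4.03 and 4.405 in control, and was 4.22-fold lower. Neither gene had an LPS_IFNg_emodin array near the other groups. Acaca, the acetyl-CoA carboxylase that commits carbon to fatty acid synthesis, differed by -1.89, and Agpat3, an acyltransferase of phospholipid synthesis, by -1.91. Esyt1, which tethers endoplasmic reticulum to plasma membrane and transfers lipids, was 3.65-fold lower. Lipn, of the acid lipase family, was at least 13.5-fold lower with 2 LPS_IFNg_emodin arrays above background, and Plpp7, of the phosphatidic acid phosphatase family, was at least 7.61-fold lower.

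Genes of the mitochondrion and peroxisome gave 13 of the 190, 12 of them above background on all LPS_IFNg_emodin arrays, with a median difference of -2.22 and the smallest spread in LPS_IFNg (median standard deviation 0.10). Sfxn2, of the sideroflexin family of inner membrane carriers, was at -0.36, -0.70, -0.80 and -0.65 in LPS_IFNg_emodin, 2.11, 2.29, 2.58 and 2.16 in LPS_IFNg and 2.39, 2.31, 2.30 and 2.51 in control, and was 7.53-fold lower. Nudt19, a peroxisomal coenzyme A hydrolase, was at 2.06, 1.83, 1.76 and 2.13 in LPS_IFNg_emodin, 4.74, 4.56, 4.51 and 4.63 in LPS_IFNg and 4.47, 4.45, 4.16 and 4.05 in control, and was 6.34-fold lower. In both genes every LPS_IFNg_emodin array lay below every other array. Bckdhb and Hibch, enzymes of branched-chain amino acid breakdown, differed by -2.44 and -1.85, Dlat, the acetyltransferase of pyruvate dehydrogenase, by -1.86, Mcub, the dominant-negative subunit of the calcium uniporter, by -2.41, and Dhodh, of pyrimidine synthesis, by -1.74. Of 20 mitochondrial ribosome and import genes, none in the set, 8 were called lower and 5 higher with a median of -0.20 (16 lower and 0 higher with spike-in scaling). Shares over all genes tested were 36.2% lower and 36.3% higher.

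Reductases, conjugating enzymes and export pumps handle carbonyl compounds and many foreign chemicals in cells, and some of their genes were in the set. Akr1c12, an aldo-keto reductase gene with close copies in mouse, was at -2.68, -3.31, -3.50 and -2.48 in LPS_IFNg_emodin, 0.43, 0.22, 0.16 and 0.29 in LPS_IFNg and 0.38, 0.31, 0.003 and -0.27 in control, a 9.64-fold lower mean. Abcc4, the efflux pump MRP4 that exports cyclic nucleotides, prostaglandins and conjugates, was at -2.18, -2.05, -2.85 and -1.98 in LPS_IFNg_emodin, 0.70, 1.10, 1.08 and 1.17 in LPS_IFNg, and 0.80, 0.67, 0.65 and 0.92 in control, a 9.67-fold lower mean. The 2 genes were lower on every LPS_IFNg_emodin array than on any other. Akr1b10, Cbr3 and Gstt1 differed by -1.94, -1.84 and -2.002. Cyb5a, the electron carrier cytochrome b5, was at 5.1997, 4.68, 4.79 and 4.85 in LPS_IFNg_emodin, 6.64, 6.75, 6.80 and 6.80 in LPS_IFNg and 7.20, 7.27, 7.02 and 6.77 in control, a 3.65-fold lower mean. Among 20 targets of NRF2, the regulator of this kind of defence, none was in the set, and 13 were called lower and 3 higher with a median difference of -0.59 (18 lower and 1 higher with spike-in scaling). Over all genes tested 36.2% were called lower and 36.3% higher, with a median of 0.01.

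Other transporters and membrane proteins of the set included Mfsd6, at 0.72, -0.27, -0.38 and 0.35 in LPS_IFNg_emodin, 3.30, 3.33, 3.54 and 3.37 in LPS_IFNg and 3.37, 3.27, 3.63 and 3.46 in control, which was 9.71-fold lower. BC028528, a gene of unassigned role here, was 5.36-fold lower. The 12 genes of protein folding, processing and turnover, among them Zmpste24, the protease that matures lamin A, at -2.37, had a median difference of -1.98.

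Transcription, chromatin and RNA gave 18 genes, 5 of them above background on all LPS_IFNg_emodin arrays, with a median difference of -1.99 with dim genes at their bound. Elk3, an ETS factor of the ternary complex family, was at -0.66, -1.16, -1.22 and -1.13 in LPS_IFNg_emodin, 2.22, 2.05, 1.90 and 2.07 in LPS_IFNg, and 2.06, 1.81, 2.26 and 2.27 in control, an 8.59-fold lower mean. Hmgn3, a nucleosome-binding protein gene, and Gtsf1 and Piwil2, both of the germline piRNA pathway, were above background on no LPS_IFNg_emodin array and at least 6.77-fold, 6.07-fold and 2.06-fold lower. Zfp286, a zinc finger gene, was at least 3.80-fold lower. Ier2, an immediate early gene, was above background on 1 LPS_IFNg_emodin array and at least 6.397-fold lower. Of 21 other immediate early and short-lived transcription factors, 7 were called lower and 12 higher, with a median difference of 0.24. Shares over all genes tested were 36.2% lower and 36.3% higher. Atf3 rose by 0.23 (± 0.08 SE, limma adjusted p = 0.0200), Jund rose by 0.24 (± 0.06, adjusted p = 0.00417) and Klf6 fell by 0.33 (± 0.10, adjusted p = 0.00890). With spike-in scaling 12 were called lower and 8 higher, and Atf3 and Jund differed by -0.46 and -0.45.

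The other 45 genes were not placed in a role, with a median difference of -1.97 with dim genes at their bound. Bicc1, an RNA-binding protein gene, had 1 LPS_IFNg_emodin array above background. Camkmt, a calmodulin methyltransferase gene, was at -4.46, -3.99, -4.52 and -4.24 in LPS_IFNg_emodin, against -1.27, -0.87, -0.96 and -1.04 in LPS_IFNg and -0.62, -0.56, -0.88 and -0.74 in control, with 1 LPS_IFNg_emodin array above background, and was at least 8.3997-fold lower. Ankrd34a, Rtn1 and Pcdh7 were above background on no LPS_IFNg_emodin array and at least 4.05-fold, 4.66-fold and 2.42-fold lower, and in Ankrd34a and Pcdh7 LPS_IFNg replicate 4 stood above the other 3, at -0.41 and -1.54. Without that replicate Ankrd34a was at least 2.67-fold lower, and its difference between LPS_IFNg and control was -0.94, outside the selected range.

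The 11 matrix, mesenchymal and contractile genes, several of which mark other cells than macrophages, had a median standard deviation of 0.58 in LPS_IFNg and 0.62 in control, against 0.17 and 0.18 over all 190. Pdgfra, the platelet-derived growth factor receptor alpha of fibroblasts, was at -6.20, -6.45, -6.13 and -5.84 in LPS_IFNg_emodin, all near background, against -0.11, -1.52, -1.22 and -0.34 in LPS_IFNg and -0.61, -0.84, 0.51 and -1.86 in control, and was at least 10.9-fold lower than in LPS_IFNg. Mgp, the matrix Gla protein of smooth muscle and fibroblasts, was at -1.48, -3.78, -3.12 and -1.96 in LPS_IFNg_emodin, 2.07, -0.47, 0.37 and 1.81 in LPS_IFNg and 1.02, 1.38, 2.09 and -0.80 in control, an 11.6-fold lower mean. The 2 genes shared their order of arrays: replicate 1 was above replicate 2 in LPS_IFNg, and replicate 3 was highest and replicate 4 lowest in control. Cavin3 and Pcolce differed by -3.26 and -1.74 and kept the same extremes, and Pcolce was among the genes whose LPS_IFNg_emodin and control arrays overlapped. Ltbp1, Fhl2 and Cald1 were above background on no LPS_IFNg_emodin array and at least 4.73-fold, 3.85-fold and 5.27-fold lower.

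Markers of mesothelial cells and fibroblasts, 14 genes of which Pdgfra is the only member, showed the same order. Their summed level was 35.7, 10.95, 13.2 and 26.2 on the LPS_IFNg_emodin arrays, 135, 69.8, 93.8 and 125 on the LPS_IFNg arrays, and 40.3, 40.5, 75.8 and 17.5 on the control arrays (linear, relative to the 75th percentile). Of the 14, 6 were above background on all LPS_IFNg_emodin arrays, 10 on all LPS_IFNg arrays and 12 on all control arrays, with Dcn, Col1a1 and Msln among them in all 3 groups. Dcn alone, the proteoglycan decorin, made up 79.98% to 82.1% of the sum in LPS_IFNg_emodin, 61.8% to 63.4% in LPS_IFNg and 44.6% to 60.0% in control. Without Dcn the sum was 6.51, 2.17, 2.64 and 4.69 in LPS_IFNg_emodin, 49.4, 25.8, 34.4 and 47.8 in LPS_IFNg, and 18.5, 16.2, 34.3 and 9.69 in control, with the same highest and lowest array in each group. Of the 12 other markers tested, 6 were called lower in LPS_IFNg_emodin than in LPS_IFNg, 0 higher and 6 in neither direction, with a median difference of -1.25 (9 lower with spike-in scaling, and 9 with the replicate number as a block). Over all genes tested 36.2% were called lower and 36.3% higher, with a median of 0.01. Between LPS_IFNg and control 6 of the 12 were called lower and 4 higher, with a median of -1.09. The part of these cells in the lower levels was not tested.

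The order of arrays within a group was not used by the selection, so it was read for all 190 genes. In control 39 genes (20.5%) had replicate 3 highest and replicate 4 lowest, as the markers had, beside 5.12% of the other flat genes. In LPS_IFNg 45 (23.7%) had replicate 1 highest and replicate 2 lowest, beside 12.6% of the other flat genes. Both held for 23 of the 190 (12.1%), against 66 of the 4830 other flat genes (1.37%). The other flat genes were brighter, with a median LPS_IFNg level of 2.03 against -0.25 for the 190. They also varied less in LPS_IFNg (median standard deviation 0.10 against 0.17), so the shares are not of like genes. Pdgfra, among the 23, is itself part of the marker sum. The 23 included Pdgfra, Mgp, Cavin3, Acta2, Cd248, Tgfb3 and Pcolce of the matrix, mesenchymal and contractile role, and also Ptgis, Angptl4, Bicc1, Hmgn3, Arhgap29, Kank1 and Gstt1. Their median deviation from the group mean on the LPS_IFNg_emodin arrays was 0.45, -0.41, -0.21 and 0.17, the same order as the marker sums there. Same-numbered LPS_IFNg_emodin and LPS_IFNg arrays deviated together over all genes, so this order is not independent of the one that named the 23. The 66 other flat genes with the same order deviated by 0.08, -0.05, -0.06 and 0.04 on those arrays. The other 167 genes deviated by 0.13, -0.10, -0.15 and 0.11 on those arrays, and by at most 0.02 on any LPS_IFNg array. With dim genes at their bound the median difference between LPS_IFNg_emodin and LPS_IFNg was -2.06 for the 23 and -2.03 for the other 167, with 7 of the 23 and 105 of the 167 above background on all LPS_IFNg_emodin arrays.

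**Figure D5:**
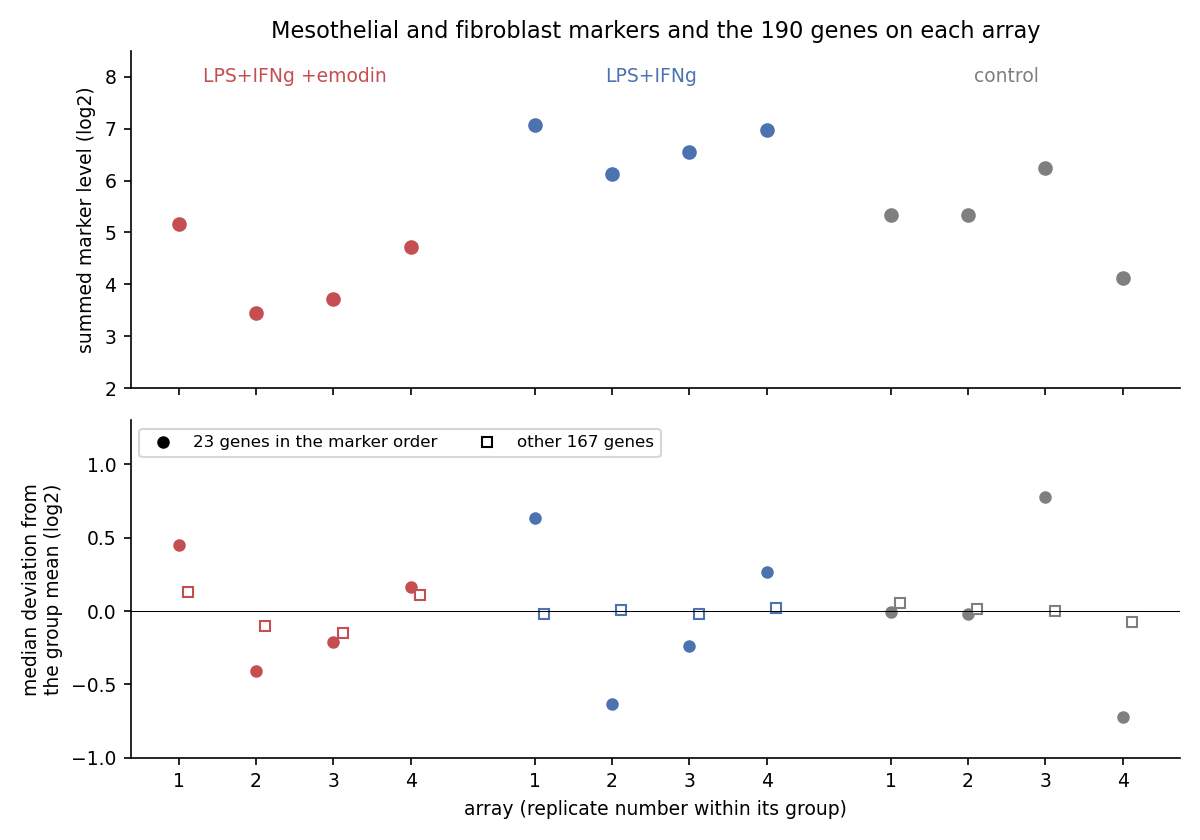
Top, the log2 of the summed level of 14 mesothelial and fibroblast markers on each array. Bottom, the median deviation from the group mean (log2) for the 23 genes in the marker order (filled circles) and the other 167 (open squares): the 23 span -0.64 to 0.63 in LPS_IFNg and -0.72 to 0.78 in control, as chosen, and -0.41 to 0.45 in LPS_IFNg_emodin, and the other 167 stay between -0.15 and 0.13.

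Some genes of B cells were in the set too. Ms4a1, which encodes CD20, was at -5.91, -6.26, -6.00 and -6.10 in LPS_IFNg_emodin, near background on all, against -1.09, -3.23, -2.50 and -1.51 in LPS_IFNg and -1.95, -1.21, -2.01 and -3.18 in control, and was at least 4.46-fold lower than in LPS_IFNg. Fcmr, the receptor for IgM, was at -6.34, -6.63, -6.20 and -5.98 in LPS_IFNg_emodin, against -0.96, -2.21, -1.42 and -1.09 in LPS_IFNg and -1.44, -0.998, -1.56 and -2.50 in control, and was at least 7.07-fold lower. Fcrla, an Fc receptor-like gene of B cells, was at least 2.18-fold lower. All 3 had replicate 2 lowest in LPS_IFNg and replicate 4 lowest in control, the same lowest arrays as the mesothelial and fibroblast marker sum. These 3 genes were picked, and the share of other genes with those lowest arrays was not counted. The summed level of 10 B-cell markers was 0.511 to 0.648 in LPS_IFNg_emodin, 0.769 to 2.10 in LPS_IFNg and 1.05 to 2.30 in control, and Cd79a was above background on all arrays of no group. Of the 4 other B-cell markers tested, 2 were called lower in LPS_IFNg_emodin than in LPS_IFNg and 1 higher, beside 36.2% and 36.3% of all genes tested. Vpreb3 was above background on all LPS_IFNg_emodin arrays but not on all arrays of LPS_IFNg or of control. Fcmr is not in that list. The part of B cells in these lower levels was not tested.

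Genes that mark resident peritoneal macrophages did not share one direction either. Ltbp1 and Naip1, both of the list of resident peritoneal macrophage genes, were in the set. Of the 19 other genes of that list, 8 were called lower in LPS_IFNg_emodin than in LPS_IFNg and 7 higher, with a median difference of -0.31 (10 lower and 2 higher with spike-in scaling). Over all genes tested 36.2% were called lower and 36.3% higher, with a median of 0.01. Adgre1, which encodes the macrophage marker F4/80, fell by 0.57 (± 0.09 SE, limma adjusted p = 0.000150), Laptm5, a lysosomal protein gene of leukocytes, rose by 0.95 (± 0.13, adjusted p = 3.06e-05) and Cebpb differed by -0.05 (adjusted p = 0.665).

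The set has no sharp edge. The 3 smallest differences inside it were those of Ptgis at -1.701, Carns1 at -1.703 and Slc66a2 at -1.703, and the nearest genes outside were Sh3bp1 at -1.698, Ccdc91 at -1.69 and Map3k6 at -1.69. At the upper end of the allowed difference between LPS_IFNg and control Fam135a was inside at 0.39 and Cenph outside at 0.40, and at the lower end Cul9 was inside at -0.39 and Nt5c outside at -0.41. In all, 814 genes had the detection and the difference with emodin, of which 190 lay in the allowed range, 398 were higher in LPS_IFNg than the range and 226 lower.

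A second probe gave a reading the selection had not used, but of the same RNA on the same arrays. Agreement between probes therefore bears on the probe and not on the difference. Its share over all genes with another probe was not counted, and 36.2% of all genes tested were called lower. Of the 32 genes with another probe above the filter, 30 had every such probe lower in LPS_IFNg_emodin than in LPS_IFNg, and 25 had them all lower by 1 or more on the log2 scale. The exceptions were Fbxo31, an F-box gene whose other probe was higher by 0.54, and Peak1, a pseudokinase gene of the cytoskeleton whose other probe was higher by 0.24. Smaller differences were seen on the other probes of Ampd2 (-0.42), Hdac8 (-0.75) and Pcdhga9 (-0.06), the last of a cluster of protocadherin genes that share 3′ exons.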

How the data were processed

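The deposited scanner files hold spot intensity from the array scanner. The submitters' processing notes name Agilent Feature Extraction 10.7.3.1. Per the file headers, the processed signal is an intensity after background subtraction and before any normalisation across arrays. The background, saturation and outlier flags are those of the same software. The authors' deposited value table holds log2 values and was used only as an alternative. Its columns for control replicates 1, 3 and 4 matched other control scanner files, which leaves group means as they are.

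Outlier spots were dropped, spots of a probe averaged, and log2 signal had the 75th percentile of the array's spots subtracted. Of 55681 probes 26160 were named, by unversioned RefSeq mRNA accessions matched to a table of assembly GRCm38.p6 used for names only, since the array design is annotated on mm9. The probe with the highest mean over 12 arrays stood for a gene. Tests covered the 12731 genes whose probe passed the background flag on each of the 4 arrays in 1 group or more.

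The limma package (3.58.1, R 4.3.3) fitted 3 group means to the 12 arrays (9 residual and 2.504 prior degrees of freedom, two-sided, Benjamini-Hochberg over all genes tested, threshold 0.05). The code was tested on simulated data. Levels are on the log2 scale, SE are of that fit, SD are over 4 arrays, and no depth exists for arrays, whose number limits the precision. Nothing in the labels ties samples to animals, and p-values reflect only the spread among these samples, which may be technical.

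Same-numbered arrays of LPS_IFNg_emodin and LPS_IFNg deviated together (correlations 0.23, 0.29, 0.14 and 0.15, each above those with other numbers), so these numbers pair those 8 arrays. Those of control did not pair with either group. The fit behind the printed SE and p-values leaves this pairing out, and a replicate block was run as an alternative.

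The 190 genes, the 20 functional and 9 cell type lists and the tests were chosen with earlier results of these data known. Named are the 30 genes with the largest difference, those in a list and the 10 brightest in LPS_IFNg, and others by function after their values were seen. For the lists holding a member the 3 brightest other genes are named. A gene and a list that these rules name are not reported here. The alternatives were quantile, detected-probe and spike-in scaling, normexp background correction, the value table, the mean over probes, 2 other filters, arrays left out, 2-group fits and the replicate block. Normexp used the median signal, as the mean signal column planned for was not in the files.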

Additional observations from a re-analysis of the deposited data

Results flagged for a closer look

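For each of the 45 genes named by rule and the groups of 4 arrays checked, an array was singled out when its gap to the nearest of the others as a share of the group's range exceeded Dixon's critical value, which chance does in about 1 of 20 groups. This happened in 6 of 113 groups, near that rate. In LPS_IFNg_emodin, replicate 3 of Cyp4f16 was low at -3.86, against -3.20 to -3.09 on the others (gap 0.854 of the range), and replicate 1 of Tuba1a was high at 3.09, against 2.91 to 2.92 (0.932). In LPS_IFNg, replicate 2 of Esyt1 was high at 4.27, against 4.15 to 4.17 (0.888). In control, replicate 4 was low for Hmgn3 at -2.44, against -1.5005 to -1.45 (0.947), and for Fhl2 at -3.13, against -2.33 to -2.22 (0.872), and high for Dock2 at 2.24, against 1.89 to 1.94 (0.850). Control replicate 4 also had the lowest mesothelial and fibroblast marker sum, 17.5 beside 40.3 to 75.8, and its part was not tested. None of the 6 arrays brought its gene's LPS_IFNg_emodin values into the range of the other groups, which the selection for large differences made likely.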

How the results depend on the processing

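With the 75th percentile 190 genes met the selection. With quantile scaling 195 did, with the percentile over detected probes 218, with the authors' values 194, with the mean over probes 186, with no filter 217, and with the percentile over probes in place of spots, chosen after seeing the data, 198. Spike-in scaling, applied to the difference with emodin alone, gave 503, normexp 104 and only probes above background on all arrays 112. Of the 190, normexp kept 83 and the last filter 112, and 62 met the selection under all scalings of quantile, detected probes, normexp, value table, probe mean and probe percentile. The median difference of the 190 was -2.92 with spike-in scaling and -1.64 with normexp, where it was -0.83 for the dimmest 64 genes and -2.02 for the brightest 64. Spike-in scaling called 9738 genes in LPS_IFNg_emodin against LPS_IFNg, 1191 of them higher, where the 75th percentile called 9231, 4627 of them higher. Of 418 tested genes of the functional lists it called 279 lower and 49 higher, where the 75th percentile called 182 lower and 153 higher. The replicate block gave 9378 calls in LPS_IFNg_emodin against LPS_IFNg and left the median of the 190 at -2.23. Leaving out 1 array at a time gave 179 to 205 genes meeting the selection, 169 to 188 of them among the 190, medians of -2.31 to -2.16, 8833 to 9394 calls in LPS_IFNg_emodin against LPS_IFNg, 8359 to 8824 in LPS_IFNg against control, 9663 to 10018 in LPS_IFNg_emodin against control, and 176 to 187 list genes lower and 145 to 154 higher. Of 1010 recomputed differences of the 45 named genes 82 moved in size and none changed sign. The genes were selected for large differences, so an unchanged sign says little. Signal over background limits the 45 genes given as bounds.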
